A study of Mus musculus with 84 samples.

Results

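The 10 genes described here encode the machinery by which a cell presents peptides of its own proteins on MHC class I molecules. They are the heavy chains H2-K1 and H2-D1, the light chain B2m, the peptide transporter subunits Tap1 and Tap2, the loading factor Tapbp, the inducible proteasome subunits Psmb8, Psmb9 and Psmb10, and the regulator Nlrc5. They were chosen by name for their role in this pathway, and all 10 were found among the 18909 genes of the count table. They were followed through the reprogramming of mouse embryonic fibroblasts (MEFs) to pluripotent cells, with and without a constitutively active form of Smad3 (Smad3CA), a transcription factor of the TGF-β pathway.

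MHC class I molecules are displayed on nearly all nucleated cells. The proteasome cuts cytosolic proteins into peptides, and 3 of its catalytic subunits can be replaced by the inducible Psmb8, Psmb9 and Psmb10 to form the immunoproteasome. The transporter made of Tap1 and Tap2 carries peptides into the endoplasmic reticulum, where tapasin (Tapbp) bridges it to empty heavy chains bound to β2-microglobulin (B2m). The pathway is known for its induction by interferons, which act through factors such as Stat2, Irf9 and Irf1, and for the activator Nlrc5, which binds class I promoters. Undifferentiated embryonic stem cells are known for low class I levels.

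RNA was measured by STRT, in which reads come from the tagged 5′ end of each transcript, in 30 libraries from 10 groups of 3 replicates. The reprogramming cells came from TNG MKOS MEFs, which were taken from chimeric embryos of mixed sex, carry a targeted Nanog-GFP reporter on a 129 background and express c-Myc, Klf4, Oct4 and Sox2 together with mOrange from a doxycycline-inducible cassette at the Sp3 locus, driven by rtTA under the CAG promoter. They were mixed with wild-type MEFs, infected with a retrovirus carrying BFP (Cont) or Smad3CA (+Sm3CA), grown in embryonic stem cell medium with doxycycline at 300 ng/ml and vitamin C, and sorted for mOrange on day 3, 6, 8 or 10. The MEF group was unsorted wild-type 129 MEFs grown with FGF2 and heparin, and the ESC group was the TNG MKOS embryonic stem cell line grown with LIF, a single line. Libraries held 1008596 to 2296059 reads (median 1602511), with the lowest group medians on day 10 (1178845 in Cont and 1012324 in +Sm3CA). MEF, ESC and day 3 wells lay in plate rows A to C, days 6 and 8 in rows D to F and day 10 in rows G and H. Plate row and day therefore cannot be told apart in the comparisons of day 10 with days 3 and 8, whereas the Cont and +Sm3CA wells of a day shared their rows.

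Levels are given as normalized counts, that is, reads divided by the library's size factor, as mean ± SD over 3 replicates unless each library is listed in the order of replicates 1 to 3. A gene was taken as near the detection limit where no library of a group had more than 3 reads, which corresponds to a mean normalized count between 2.04 (+Sm3CA day 8) and 4.01 (ESC). Comparisons used edgeR's quasi-likelihood test over all genes, and rose, fell or passed refers to a Benjamini-Hochberg adjusted p under 0.05. No level of a member is compared with that of another gene, since the counts depend on the capture of each transcript. Smad3 reads, which combine the endogenous gene and the vector, were checked against the labels first. On day 3, Smad3 was at 18.7, 5.19 and 8.94 in Cont and at 184, 89 and 126 in +Sm3CA (log2 fold change 3.53, SE 0.345, adjusted p = 1.51e-08; 4.15 without Cont day 3 replicate 1). Every +Sm3CA library lay above every Cont library on all 4 days, although the difference on day 10 (log2 fold change 0.997, SE 0.357) did not pass (adjusted p = 0.12). The MEF libraries held 5180 to 6840 summed normalized counts of 12 fibroblast markers against 4.57 to 12.6 in ESC, and the ESC libraries 29100 to 55600 of 12 pluripotency markers against 8.89 to 15.2 in MEF.

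Of the 10 genes, 7 lie within 1351.6 kb of mouse chromosome 17 (GRCm38, GENCODE M21 annotation), the MHC locus, between Tapbp (chr17:33915899-33929292, plus strand) and H2-D1 (chr17:35262730-35267499, plus strand). H2-K1 is at chr17:33996017-34000347 on the minus strand. Psmb9 (chr17:34181987-34187764, minus strand), Tap1 (chr17:34187553-34197225, plus strand), Psmb8 (chr17:34197721-34201454, plus strand) and Tap2 (chr17:34203527-34216321, plus strand) fill 34.3 kb side by side. The gene models of Psmb9 and Tap1 overlap at their 5′ ends, on opposite strands. B2m is on chromosome 2 (chr2:122147686-122153083, plus strand), and Nlrc5 (chr8:94434356-94527272, plus strand) and Psmb10 (chr8:105935735-105938444, minus strand) are on chromosome 8. All 10 are protein coding.

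H2-K1 and H2-D1 resemble each other and other class I genes closely. Of the windows of 30 bases in their annotated transcripts, 24% in H2-K1 and 28.1% in H2-D1 also occur in transcripts of other genes, against none in B2m, Psmb9, Psmb10 and Nlrc5. The treatment of reads that match several genes is not given in the sources used here, so the split of reads between H2-K1, H2-D1 and H2-L is uncertain. Reads of overlapping genes on opposite strands, such as Tap1 and Psmb9, or B2m and Patl2, may be uncertain as well, since the use of strand in counting is not given in the sources used here.

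Class I regulation is known to act through short elements close to the start site. The promoters of both heavy chains and B2m are shown because they hold such elements in the same order, with that of Tap1, which shares its start region with Psmb9, and that of Psmb10, which holds none. Windows were read for 8 members (all but Tap2 and Nlrc5) from RefSeq on GRCm38.p6. Motifs searched on both strands are in capitals: TGACG (the core of the X2 element bound by CREB and ATF factors), ATTGG (the core of the Y element bound by NF-Y), AANNGAAA (the core of an interferon response element) and GGGATTCCC (an NF-κB site). Each sequence is the 250 bases before the annotated start site, 5′ to 3′ on the strand of the gene.
H2-K1 (chr17:34000348-34000597, minus strand): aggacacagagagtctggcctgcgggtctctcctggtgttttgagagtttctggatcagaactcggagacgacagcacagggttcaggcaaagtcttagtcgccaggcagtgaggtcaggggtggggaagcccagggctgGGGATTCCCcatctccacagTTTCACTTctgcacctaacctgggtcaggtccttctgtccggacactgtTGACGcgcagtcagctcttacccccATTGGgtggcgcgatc
H2-D1 (chr17:35262844-35263093, plus strand): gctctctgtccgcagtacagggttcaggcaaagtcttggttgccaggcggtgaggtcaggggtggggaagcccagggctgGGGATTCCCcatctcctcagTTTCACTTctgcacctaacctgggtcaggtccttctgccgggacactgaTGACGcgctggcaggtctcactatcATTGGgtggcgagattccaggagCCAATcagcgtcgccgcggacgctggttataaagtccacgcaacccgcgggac
B2m (chr2:122147437-122147686, plus strand): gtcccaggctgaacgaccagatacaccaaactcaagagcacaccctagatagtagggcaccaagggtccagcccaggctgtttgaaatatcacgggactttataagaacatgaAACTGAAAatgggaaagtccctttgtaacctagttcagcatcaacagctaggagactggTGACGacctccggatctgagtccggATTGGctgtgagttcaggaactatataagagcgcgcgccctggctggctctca
Tap1, toward Psmb9 (chr17:34187306-34187555, plus strand): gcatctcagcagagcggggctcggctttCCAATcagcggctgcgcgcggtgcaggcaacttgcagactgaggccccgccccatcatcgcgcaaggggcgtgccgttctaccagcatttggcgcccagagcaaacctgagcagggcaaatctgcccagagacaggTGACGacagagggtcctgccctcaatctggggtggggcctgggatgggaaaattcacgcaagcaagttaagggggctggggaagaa
Psmb10 (chr8:105938393-105938642, minus strand): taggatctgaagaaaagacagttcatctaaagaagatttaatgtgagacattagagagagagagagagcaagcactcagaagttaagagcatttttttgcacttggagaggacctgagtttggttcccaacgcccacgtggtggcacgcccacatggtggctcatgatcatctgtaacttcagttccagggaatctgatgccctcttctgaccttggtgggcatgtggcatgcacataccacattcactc

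In the H2-K1 window the elements stood in the order NF-κB site (-110 to -102 from the start site), interferon response core (-90 to -83), TGACG (-41 to -37) and ATTGG (-16 to -12). H2-D1 carried the same order at -170 to -162, -150 to -143, -101 to -97 and -76 to -72, with another ATTGG at -53 to -49. H2-K1 had another ATTGG too, past the end of the printed sequence at 8 to 12. From another annotated H2-K1 start site it lay at -6 to -2. B2m had the interferon response core at -137 to -130, TGACG at -78 to -74 and ATTGG at -53 to -49, without GGGATTCCC. Another TGACG of B2m lay past the end of the printed sequence at 44 to 48. In these 3 genes exactly 20 bases separated TGACG from ATTGG. This spacing, which was noticed in the sequences and then counted, was found in 31 of 32851 RefSeq promoter windows (0.0944%, windows running from 250 bases before to 50 after the start), which belong to 27 genes. Taken singly the motifs were common: 37.4% of windows held ATTGG, 20.8% TGACG and 23.9% AANNGAAA, whereas GGGATTCCC was in 0.353%. Tap1 and Psmb9 share their start region, so the ATTGG near the Psmb9 start (-8 to -4) is the same as the one at -222 to -218 of Tap1. Tapbp had ATTGG at -248 to -244 and at -165 to -161 and none of the other motifs in capitals, and Psmb8 and Psmb10 had none of them in their windows. A further motif, TTCNNNGAA (a gamma activated site, in 8.3% of windows, not shown in capitals), was found in the Psmb8 window only among the members. Matches to letters do not show binding.

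Both heavy chains rose from day 3 to day 10 of control reprogramming, and on day 10 they were lower in +Sm3CA. H2-K1, a classical class I heavy chain that presents peptides to CD8 T cells, was at 9.81, 7.78 and 6.5 in day 3 Cont libraries, was at 20.8, 23.9 and 16.7 by day 6 and at 62.3, 33.8 and 54.9 by day 8, and reached 131, 183 and 170 at day 10. Its mean rose 20.1-fold from day 3 to day 10 (log2 fold change 4.3, SE 0.31, adjusted p = 3.18e-13). The last step alone, from day 8 to day 10, was 3.2-fold (log2 fold change 1.67, SE 0.242, adjusted p = 3.69e-05). No library of a later day overlapped the day 3 libraries.

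In +Sm3CA, H2-K1 was at 6.91, 12.1 and 18.8 in the day 3 libraries, at 11.1, 20.2 and 20.2 by day 6, at 45.1, 43.5 and 41.2 by day 8 and at 54.7, 63.4 and 75.5 by day 10. It thus followed Cont up to day 8, where the ranges overlapped, and every +Sm3CA library of day 10 lay below every Cont library. The mean on day 10 was 2.5-fold lower than in Cont (log2 fold change -1.3, SE 0.243, adjusted p = 0.000761). The rise from day 3 to day 10 in +Sm3CA was 5.13-fold (log2 fold change 2.4, SE 0.304, adjusted p = 1.11e-07), and its change from day 8 to day 10 did not pass (log2 fold change 0.58, adjusted p = 0.188). The test of the difference between the 2 rises gave -1.89 on the log2 scale (SE 0.464, adjusted p = 0.0303), the only member of the 6 tested to pass it, where 0.899% of all genes passed in this direction. That call was lost without any of 9 of the 12 libraries: Cont day 3 replicates 1, 2 and 3, Cont day 10 replicates 2 and 3, +Sm3CA day 3 replicates 2 and 3 and +Sm3CA day 10 replicates 1 and 2 (adjusted p up to 0.199, with log2 values between -1.49 and -2.08).

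H2-D1, also a classical heavy chain, rose more gradually. It was at 72.2, 53.2 and 44.7 in Cont on day 3 and at 201, 245 and 184 on day 10, a rise of 3.7-fold (log2 fold change 1.87, SE 0.209, adjusted p = 8.23e-09). In +Sm3CA it went from 56, 64.9 and 46.9 to 123, 106 and 121, a rise of 2.09-fold (log2 fold change 1.06, SE 0.215, adjusted p = 0.000189). On day 10 it was 1.8-fold lower in +Sm3CA without overlap (log2 fold change -0.829, SE 0.2, adjusted p = 0.00978), a call lost without Cont day 10 replicate 2 (adjusted p = 0.101) or +Sm3CA day 10 replicate 2 (0.087). On day 8 the H2-D1 libraries already did not overlap (112, 103 and 134 in Cont against 93.3, 72.3 and 91.2), but the difference did not pass (log2 fold change -0.441, adjusted p = 0.268).

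B2m, the light chain shared by all class I molecules, changed least among the members that rose. In Cont it was at 2410, 2770 and 2800 on day 3, at 3210, 3290 and 3410 on day 8 and at 4640, 4990 and 4370 on day 10. This was a 1.75-fold rise over the course (log2 fold change 0.797, SE 0.179, adjusted p = 0.000859). In +Sm3CA it was at 2270, 2570 and 2200 on day 3 and at 2120, 3110 and 2180 on day 10, which did not pass (log2 fold change 0.0824, SE 0.178, adjusted p = 0.757). On day 10, B2m was 1.89-fold lower in +Sm3CA (log2 fold change -0.901, SE 0.179, adjusted p = 0.00159), and no library overlapped. The 2 rises were not shown to differ (difference -0.714 on the log2 scale, adjusted p = 0.189).

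**Figure D1:**
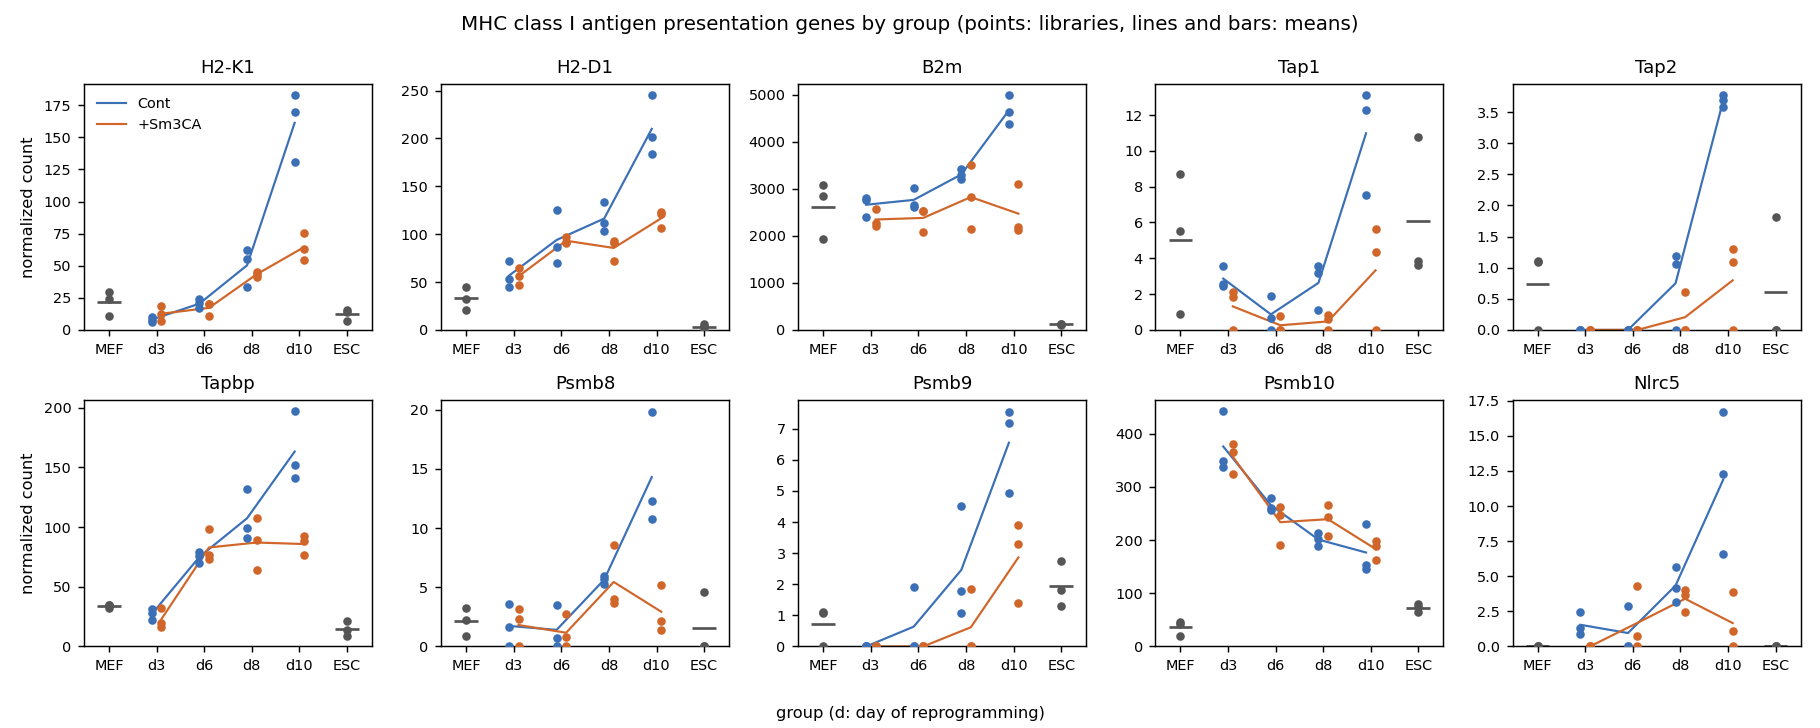
Normalized count (y axes, each from 0 on its own scale) of the 10 genes in MEF, in Cont (blue) and +Sm3CA (orange) at each of the 4 days, and in ESC; points are libraries, lines and bars join or mark means of 3. Except in Psmb10, all 3 +Sm3CA libraries of day 10 lie below all 3 Cont libraries, as in 11.9% of all genes tested. Of these members, Tap1, Tap2, Psmb9 and Nlrc5 had too few reads to be tested, and Psmb8 entered the test through its Cont reads. H2-K1 reaches 131 to 183 in Cont against 54.7 to 75.5.

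The loading factor Tapbp, which holds empty heavy chains next to the transporter, rose from day 3 to day 10 in both series. In Cont it was at 31.2, 22.1 and 28.4 on day 3, at 75.5, 79.5 and 70.3 on day 6, and at 152, 197 and 141 on day 10. Over the course it rose 6-fold (log2 fold change 2.54, SE 0.241, adjusted p = 1.88e-10). In +Sm3CA it was at 32.2, 16.7 and 19.8 on day 3, at 98.3, 73.7 and 76.9 on day 6 and at 92.5, 76.5 and 88.5 on day 10 (log2 fold change from day 3 of 1.88, SE 0.254, adjusted p = 3.95e-07). Tapbp was 1.9-fold lower in +Sm3CA on day 10 without overlap (log2 fold change -0.913, SE 0.218, adjusted p = 0.00913). This call was lost without Cont day 10 replicate 2 (adjusted p = 0.105) or +Sm3CA day 10 replicate 2 (0.0857).

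The transporter genes Tap1 and Tap2 had few reads and did not pass the filter on low counts. Tap1 had 4, 2 and 3 reads in Cont on day 3, 1, 3 and 6 on day 8 and 10, 11 and 8 on day 10, against 4, 4 and 0 in +Sm3CA on day 10. The mean normalized counts of day 10 were 11 ± 3.03 and 3.33 ± 2.95, and the libraries did not overlap. Tap2 had no read in any library of days 3 and 6, 3, 3 and 4 reads in Cont on day 10, and 0, 1 and 1 in +Sm3CA. Its mean Cont level on day 10 (3.69) was at least 1.23-fold above the mean limit that 3 reads per library set on day 3. It lay below the highest such limit of a Cont library of day 3 (3.89). In a fit without the filter (17993 genes) neither passed between +Sm3CA and Cont on day 10. The log2 fold change was -1.64 for Tap1 (adjusted p = 0.543) and -1.99 for Tap2 (adjusted p = 0.745), so no difference was called from these few reads.

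The 3 inducible proteasome subunits did not move together. Psmb8 and Psmb9, which lie next to Tap1 in the MHC locus, had at most 4 reads in any library of day 3 and were higher on day 10 of control reprogramming. Psmb10, on chromosome 8, fell over the same days, and its +Sm3CA and Cont libraries overlapped on day 10. Psmb8 had 10, 9 and 21 reads in Cont on day 10 (normalized 14.3 ± 4.82) and 1, 2 and 4 in +Sm3CA (2.93 ± 2.01), while on day 8 both were alike (5.63 ± 0.346 and 5.44 ± 2.72). In Cont it rose from 4, 0 and 2 reads on day 3 (log2 fold change 2.85, SE 0.785, adjusted p = 0.00606; 3.72 without Cont day 3 replicate 1). Psmb8 passed the filter through the group where it was high. The day 10 difference of +Sm3CA from Cont (log2 fold change -2.24, SE 0.773) did not pass (adjusted p = 0.102), with a 95% interval of -3.76 to -0.725 before adjustment.

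Psmb9 had no read in Cont on day 3, 4, 1 and 3 reads on day 8 and 4, 6 and 8 on day 10, when its level was at least 2.18-fold above the limit of day 3. In +Sm3CA it had 1, 3 and 3 reads on day 10. In the fit without a filter the rise in Cont passed (adjusted p = 0.00964) and that of +Sm3CA from Cont at day 10 did not (adjusted p = 0.807).

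Psmb10 was at 442, 348 and 338 in day 3 Cont libraries, at 280, 256 and 261 by day 6, at 213, 188 and 202 by day 8 and at 230, 146 and 154 by day 10. It was 2.13-fold lower on day 10 than on day 3 (log2 fold change -1.11, SE 0.177, adjusted p = 9.04e-06). In +Sm3CA it went from 325, 381 and 365 to 198, 189 and 163, 1.95-fold lower (log2 fold change -0.956, SE 0.177, adjusted p = 6.12e-05). At day 10, +Sm3CA differed from Cont by 0.0728 on the log2 scale (95% interval -0.286 to 0.431, adjusted p = 0.894), with no direction that held when single Cont libraries were left out.

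The standard catalytic subunits that the inducible ones replace, Psmb5, Psmb6 and Psmb7, did not rise in Cont. From day 3 to day 10, Psmb7 (log2 fold change -0.559, SE 0.179, adjusted p = 0.0181) and Psmb6 (-0.49, SE 0.184, adjusted p = 0.0452) fell, and Psmb5 did not pass (-0.172, adjusted p = 0.588). In +Sm3CA, Psmb5 rose from day 8 to day 10 (0.736, SE 0.212, adjusted p = 0.0363). The Psmb7 call was lost without Cont day 3 replicate 3, Cont day 10 replicate 2 or Cont day 10 replicate 3 (0.0664, 0.0625 and 0.0846), and the Psmb6 call without replicate 1 or 2 of either day (0.0599 to 0.2). Of 12 other genes of the core particle, its maturation factor Pomp included, 6 fell (Psma2, Psma4, Psma7, Psmb2, Psmb3 and Pomp) and the rest did not pass. Over all genes tested 11.6% fell. The median log2 fold change of the 12 was -0.444, against 0.0855 over all genes tested. The calls of Psma2 and Psmb2 were each lost without any of 4 libraries (replicates 2 and 3 of either day for Psma2, replicates 1 and 2 for Psmb2, adjusted p up to 0.141). Between +Sm3CA and Cont on day 10 none of the 3 standard subunits passed in edgeR (0 at an unadjusted p under 0.05) or DESeq2, and none of the other 12 did (2 at an unadjusted p under 0.05, 0 in DESeq2).

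Psme1 and Psme2, the subunits of the PA28 activator that opens the proteasome and is induced by interferon, rose with the heavy chains in Cont. Psme1 went from 47.6 ± 5.93 to 110 ± 4.25 (log2 fold change 1.2, SE 0.238, adjusted p = 0.000216) and Psme2 from 139 ± 12.1 to 336 ± 102 (1.27, SE 0.217, adjusted p = 2.65e-05). Psme4, the activator PA200, rose too (1.41, adjusted p = 2.81e-06), and Psme3 did not pass. On day 10 Psme2 was at 236, 333 and 440 in Cont and at 236, 200 and 184 in +Sm3CA, which did not pass (log2 fold change -0.694, adjusted p = 0.0607). Psme1 was at 114, 105 and 110 in Cont and at 91.1, 126 and 72.9 in +Sm3CA (-0.16, adjusted p = 0.796). None of the 4 activators passed on day 10 (1 at an unadjusted p under 0.05, 0 in DESeq2; 1 passed without Cont day 10 replicate 1). On day 8 Psme1 was lower in +Sm3CA, at 39.6, 31.2 and 42 against 55.5, 93.9 and 87.7 in Cont (-1.07, SE 0.236, adjusted p = 0.0156), and DESeq2 also called 1 of the 4.

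**Figure D2:**
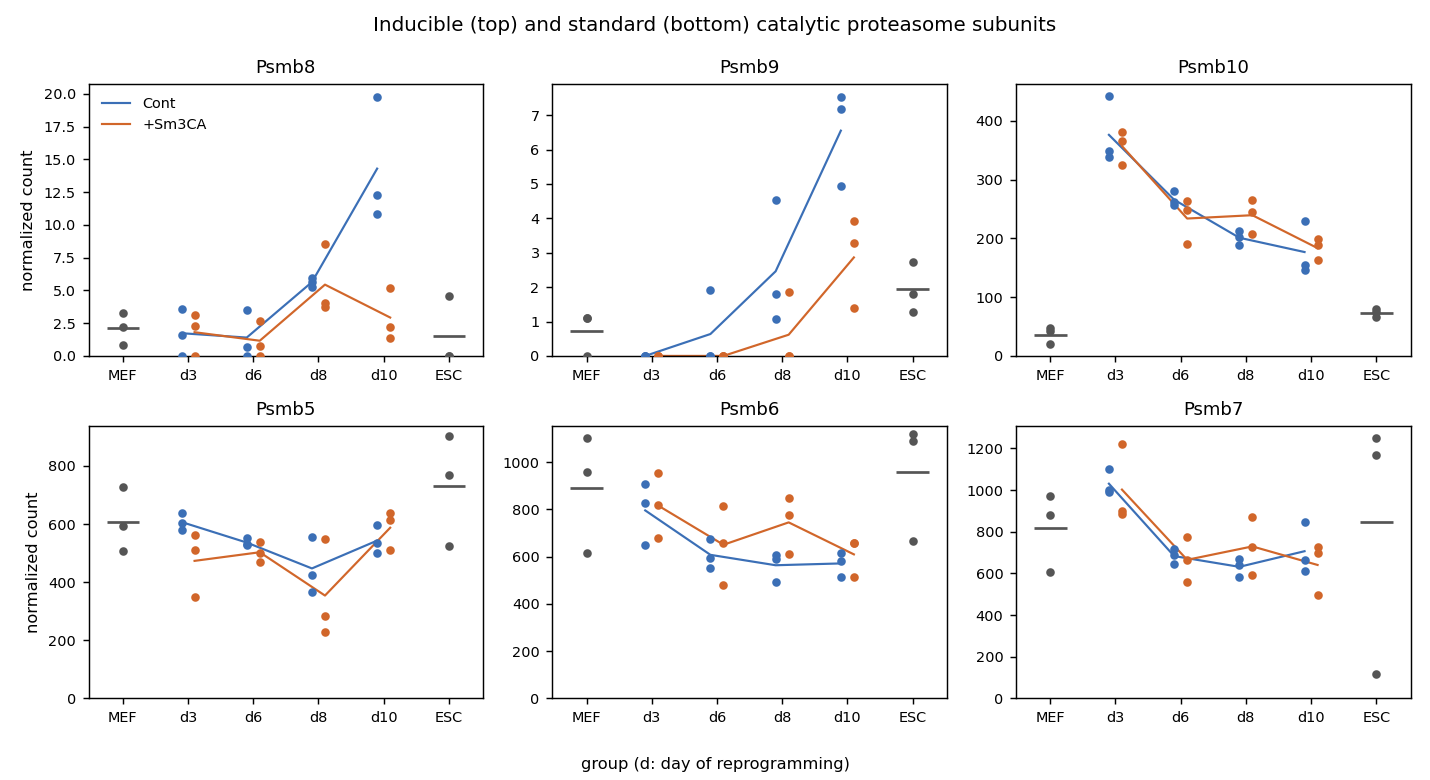
Normalized count (y axes from 0) of the inducible subunits Psmb8, Psmb9 and Psmb10 (top) and the standard subunits Psmb5, Psmb6 and Psmb7 (bottom) by group; points are libraries, lines and bars mark means. Psmb8 and Psmb9 are highest in Cont on day 10, Psmb10 declines from 376 to 176 in Cont, and in Cont no standard subunit rises from day 3 to day 10; in ESC the Psmb7 libraries range from 117 to 1250.

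Nlrc5, a member of the NOD-like receptor family that acts as the class I transactivator, had few reads. In Cont it had 1, 1 and 3 reads at day 3, 0, 3 and 0 at day 6, 5, 3 and 7 at day 8, and 10, 14 and 7 at day 10. In +Sm3CA it had 4, 6 and 5 reads on day 8 and 0, 1 and 3 on day 10. It had no read in any MEF or ESC library. The libraries of day 10 did not overlap, but in the fit without a filter the difference did not pass (log2 fold change -2.7, SE 0.97, adjusted p = 0.132), whereas the rise from day 3 to day 10 in Cont did (2.75, SE 0.933, adjusted p = 0.0261).

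In the comparison of +Sm3CA with Cont, calls among the members were made on day 10. Of 6 members tested (H2-K1, H2-D1, B2m, Tapbp, Psmb8 and Psmb10), none passed on day 3 (0.0195% of all genes tested did), on day 6 (0.00977%) or on day 8 (1.04%) in edgeR. DESeq2 also called none on these 3 days, and at an unadjusted p under 0.05 there were 0, 0 and 1. On day 10, 4 members fell (H2-K1, H2-D1, B2m and Tapbp), where 2.74% of the genes tested were lower. Whether the difference changed between days was tested for day 10 against day 3, where H2-D1 (adjusted p = 0.219), B2m (0.189) and Tapbp (0.468) did not pass, and was not tested for day 10 against day 8. The median log2 fold change of the 6 members, Psmb8 included, was -0.0754, -0.19, -0.209 and -0.907 in the order of the days, against 0.00164, 0.00932, -0.00339 and -0.00514 over all genes tested. On day 10, H2-K1, H2-D1, B2m and Tapbp had every +Sm3CA library below every Cont library, as did Psmb8, which entered the test through its Cont reads, and 11.9% of all genes tested. Of the 6 members tested, H2-D1 also did on day 8 (8.35% of genes) and B2m on day 6 (6.41%). In these bulk libraries fewer cells that express a gene and less RNA per cell cannot be told apart.

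**Figure D3:**
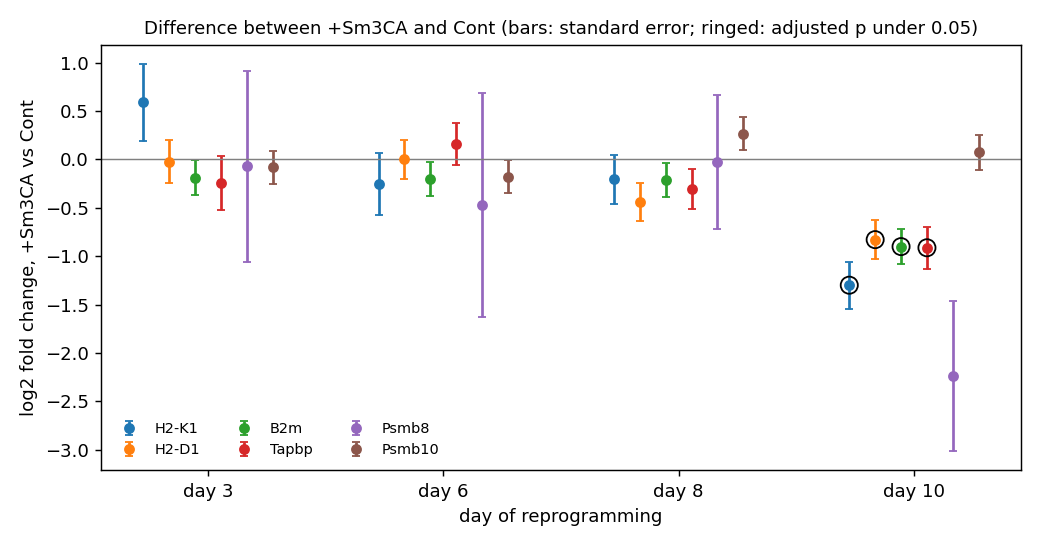
Log2 fold change of +Sm3CA against Cont (y axis) for the 6 members tested, by day of reprogramming (x axis); bars are standard errors of the edgeR fit and rings mark an adjusted p under 0.05. H2-K1 (-1.3), H2-D1 (-0.829), B2m (-0.901) and Tapbp (-0.913) are ringed on day 10, and Psmb10 stays at 0.0728.

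Over the course of control reprogramming, H2-K1, H2-D1, B2m and Tapbp rose from day 3 to day 10 (13.6% of all genes tested), as did Psmb8, which entered the test through its Cont reads of day 10, and Psmb10 fell (11.6%). In +Sm3CA, H2-K1, H2-D1 and Tapbp rose (17.6% of genes) and Psmb10 fell (16.2%). Between days 8 and 10, H2-K1 and H2-D1 rose in Cont (1.58% of genes). The H2-D1 call of that step (log2 fold change 0.839, adjusted p = 0.01) was lost without Cont day 8 replicate 1, Cont day 8 replicate 2 or Cont day 10 replicate 2 (adjusted p 0.0681, 0.0884 and 0.101). No member passed between these days in +Sm3CA (4.85% of all genes changed; 0 members in edgeR or DESeq2, 3 at an unadjusted p under 0.05). These comparisons share the day 10 libraries, so they are not independent.

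Among other class I genes, H2-L and H2-T9 rose in Cont and were lower in +Sm3CA on day 10. Of 24 class I and class I-like genes listed, 6 were tested in the reprogramming libraries, of which 4 rose in Cont from day 3 to day 10 (13.6% of all genes) (2 without Cont day 10 replicate 2) and 2 fell in +Sm3CA against Cont on day 10 (2.74%), with median log2 fold changes of 1.68 and -0.771. H2-L, whose sequence is close to that of H2-D1, was at 231, 309 and 295 in Cont on day 10 and at 136, 135 and 132 in +Sm3CA (log2 fold change -1.04, SE 0.19, adjusted p = 0.000604). The split of reads between H2-L, H2-K1 and H2-D1 is uncertain. The H2-L calls, which are among the 4 and the 2, may therefore repeat those of the members. H2-T9, a nonclassical gene, was at 50.6, 70.5 and 85.7 against 22.4, 13.1 and 23.4 (-1.81, SE 0.367, adjusted p = 0.00205). H2-K2 rose in Cont (1.41, adjusted p = 0.00394) and did not pass between the series on day 10 (-1.13, adjusted p = 0.0882), and its rise was lost without Cont day 10 replicate 2 (0.0595). Fcgrt, the neonatal Fc receptor, which also pairs with B2m, rose in Cont (2.59, SE 0.841, adjusted p = 0.0199), with a log2 fold change of -0.038 between the series (adjusted p = 0.989). Its rise was lost without Cont day 3 replicate 1 (0.052), Cont day 3 replicate 3 (0.132) or Cont day 10 replicate 2 (0.0608), and in DESeq2 (0.0505).

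Most general chaperones and peptidases of the pathway did not pass. Of 13 tested loading and trimming partners, Npepps, a cytosolic aminopeptidase named after its value was seen, rose, and Calr, Lap3 and Blmh fell in Cont from day 3 to day 10 (median log2 fold change -0.15, against 0.0855 over all genes), and 9 did not pass. Over all genes 13.6% rose and 11.6% fell, so the share of partners called was near the background. Calr, the chaperone calreticulin, went from 676 ± 78.8 to 398 ± 63.9 (log2 fold change -0.776, SE 0.168, adjusted p = 0.000596). The Blmh call was lost without Cont day 3 replicate 2, Cont day 10 replicate 2 or Cont day 10 replicate 3 (0.146, 0.095 and 0.0726). None of the 13 passed between +Sm3CA and Cont on day 10 (2 at an unadjusted p under 0.05, 0 in DESeq2).

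Among the transcription factors known to act on class I promoters, Stat2 rose in Cont and was lower in +Sm3CA on day 10, where most of those tested did not pass. Stat2, a mediator of type I interferon signalling, rose in Cont from day 3 to day 10 (log2 fold change 3.29, adjusted p = 5.17e-06). On day 10 it was at 35.8, 45.4 and 53.7 in Cont and at 7.01, 25.1 and 11.7 in +Sm3CA (-1.56, SE 0.439, adjusted p = 0.034), without overlap. This call was lost without Cont day 10 replicate 2 (0.0988), Cont day 10 replicate 3 (0.161), +Sm3CA day 10 replicate 1 (0.179) or +Sm3CA day 10 replicate 3 (0.163), and in DESeq2 (0.0519), and the log2 fold change was -2.21 without +Sm3CA day 10 replicate 2.

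Irf9, a DNA-binding partner of Stat2, rose in both series, from 10.8 ± 0.512 to 62.8 ± 9.79 in Cont (log2 fold change 2.5, adjusted p = 7.1e-07) and from 7.05 ± 4.22 to 42.4 ± 12 in +Sm3CA (2.52, adjusted p = 2.36e-06). Between the series on day 10 it did not pass (-0.545, adjusted p = 0.391). Irf1, an early interferon target, was at 22.2, 23.9 and 12.2 in Cont and at 19.6, 8.74 and 11.7 in +Sm3CA on day 10 (-0.529, adjusted p = 0.686), and Rfx5, a subunit of the complex on the X1 element, was at 8.23 ± 2.76 and 8.53 ± 3.13 (0.0288, adjusted p = 0.99). Of 9 interferon receptor and signalling genes, Ifngr2, a chain of the interferon gamma receptor, fell on day 10 (13.6 to 17 in Cont against 2.8 to 6.55, adjusted p = 0.0485), a call lost in all 11 alternatives, whichever library of that day was left out (adjusted p 0.0509 to 0.175).

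**Figure D4:**
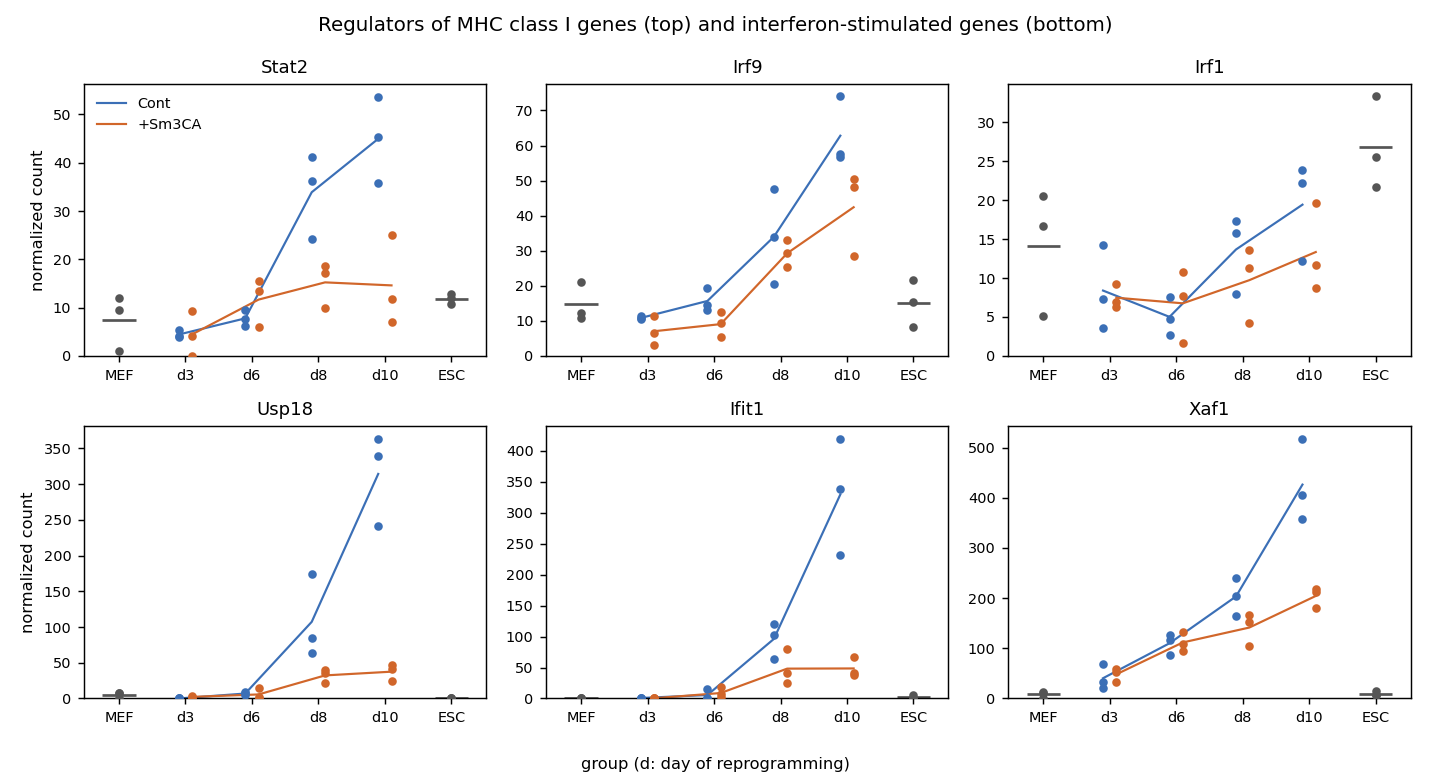
Normalized count (y axes from 0) of the regulators Stat2, Irf9 and Irf1 (top) and of the interferon-stimulated genes Usp18, Ifit1 and Xaf1 (bottom) by group; points are libraries, lines and bars mark means. Stat2, Usp18 and Ifit1 are higher in all Cont libraries than in all +Sm3CA libraries of day 10, whereas the Irf1 libraries overlap.

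Interferon-stimulated genes rose in Cont and were lower in +Sm3CA on days 8 and 10, in part. All 23 listed genes, none of them a member, rose in Cont from day 3 to day 10 (13.6% of all genes did). The list's median log2 fold change was 5.95, or 3.88 with the 16 genes near the detection limit on day 3 at their bound. Genes so low on day 3 entered the test through their later reads, so the count of 23 is a description. In +Sm3CA 19 rose over the same days (17.6% of all genes did). The list's median log2 fold change there was 4.07, or 2.19 with 14 genes near the detection limit at their bound. On day 8, 4 of the 23 fell in +Sm3CA against Cont (1.04% of all genes changed; median log2 fold change -1.02; 14 at an unadjusted p under 0.05, 1 in DESeq2). On day 10, 14 of the 23 fell in +Sm3CA against Cont (2.74% of all genes; median log2 fold change -2.19; 12 in DESeq2), a count of 9 without Cont day 10 replicate 2 or +Sm3CA day 10 replicate 3. Usp18, a protease that removes Isg15 and dampens interferon signalling, was at 241, 363 and 339 in Cont and at 46.3, 41.5 and 24.7 in +Sm3CA (-3.05, SE 0.355, adjusted p = 7.64e-07). Ifit1, which binds foreign RNA, was at 231, 419 and 339 against 67.3, 40.4 and 37.8 (-2.76, SE 0.396, adjusted p = 1.73e-05). The summed level of the list was 145, 193 and 123 in Cont on day 3 and 2300, 3590 and 3020 on day 10, against 1000, 829 and 645 in +Sm3CA on day 10. MHC class II genes, 8 of which were in the table, had too few reads to be tested in edgeR, and none was called by DESeq2, which tested up to 7 of them, and transcripts of the interferons themselves were not analysed here.

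Markers of other cell types moved over the same days. The summed level of 15 macrophage and other leukocyte markers, of which Lyz2 was the most abundant, was 1020, 1150 and 402 in Cont on day 3, 664, 2850 and 2710 in Cont on day 10 and 1010, 940 and 1660 in +Sm3CA on day 10. It was 506 to 2110 in the MEF group, which was unsorted wild-type MEFs and not the sorted transgenic cells. Of 10 leukocyte markers tested, 6 rose in Cont over the course (13.6% of all genes), and on day 10 Fcer1g, a chain of Fc receptors, was lower in +Sm3CA (log2 fold change -1.89, adjusted p = 0.0258), a call lost without Cont day 10 replicate 2 or 3 or +Sm3CA day 10 replicate 1 or 2 (0.0973 to 0.198), and in DESeq2 (0.0598). At an unadjusted p under 0.05, 7 of the 10 differed on day 10, DESeq2 called 0, and without Cont day 10 replicate 1 edgeR called 5. Their median log2 fold change was -0.988, against -0.00514 over all genes and -0.907 over the 6 members tested. Cont day 10 replicate 1 had a lower leukocyte sum (664, with Lyz2 at 530) than every +Sm3CA library of that day. The relation of this sum to the class I levels was not tested.

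Of 12 fibroblast markers, 6 were lower in +Sm3CA than in Cont on day 10 (2.74% of all genes; median log2 fold change -1.12; 4 in DESeq2), a count of 1 without Cont day 10 replicate 2 and of 3 without Cont day 10 replicate 3 or +Sm3CA day 10 replicate 3. Their sum was 1420, 3070 and 2970 in Cont and 1650, 1620 and 1300 in +Sm3CA, with Dcn the most abundant. For this sum Cont replicate 1 lay within the +Sm3CA range. The sum of 12 pluripotency markers, led by Dppa5a, was 739, 507 and 1110 in Cont and 1150, 1320 and 2410 in +Sm3CA on day 10, and 3 of the 11 tested (Zfp42, Dppa5a and Dppa3) were higher in +Sm3CA (0.83% of all genes), all of them calls lost without Cont day 10 replicate 2 or +Sm3CA day 10 replicate 3 (0.0998 to 0.262). DESeq2 called 1 of the list, and Dppa5a (0.236) and Dppa3 (0.832) did not pass there. The sum of 8 epidermal markers, led by Krt14, was 433, 582 and 593 against 306, 229 and 133 without overlap, and Krt14 was lower in +Sm3CA (log2 fold change -1.6, adjusted p = 0.000166). The sum of 8 endothelial markers was 17.3 to 24.5 in Cont and 13 to 26.6 in +Sm3CA. The part of these cell type markers in the class I differences was not tested.

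**Figure D5:**
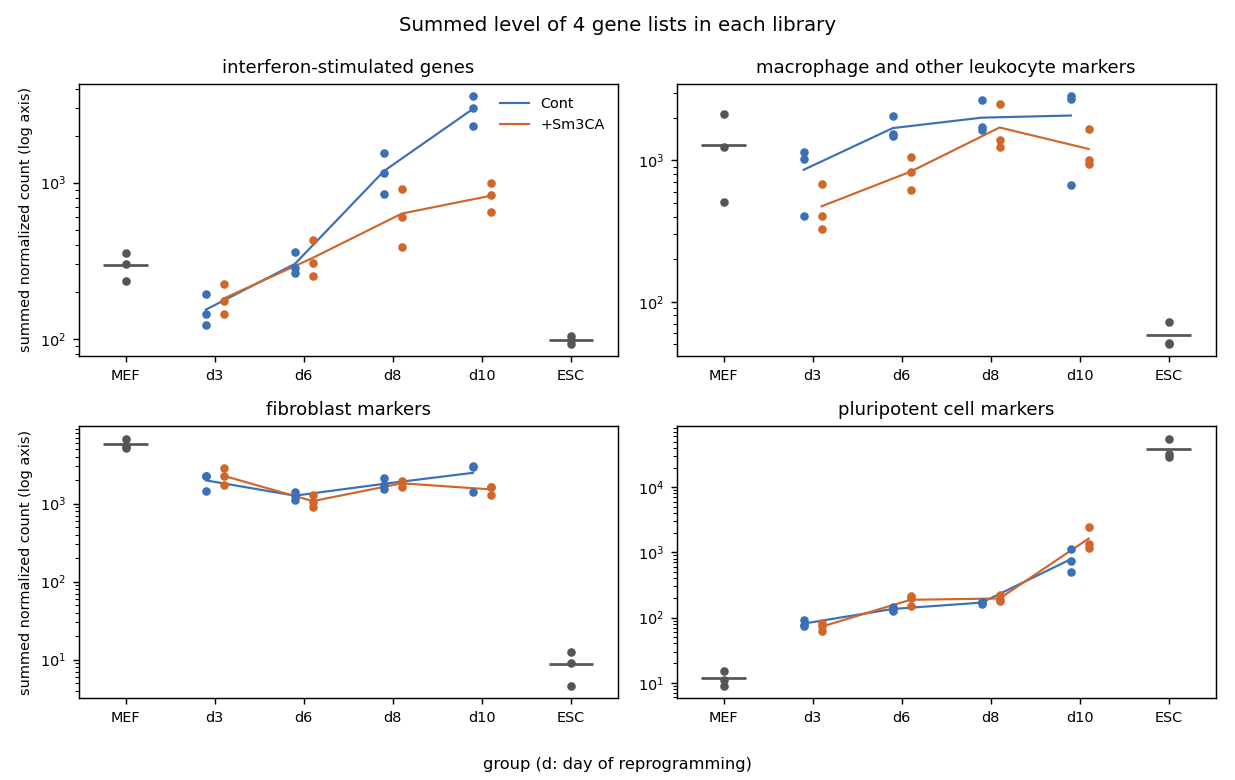
Summed normalized count (y axes logarithmic) of the interferon-stimulated genes and of the leukocyte, fibroblast and pluripotency markers in each library by group; lines and bars mark means. The sum of interferon-stimulated genes separates Cont (2300 to 3590) from +Sm3CA (645 to 1000) on day 10, as does the pluripotency sum in the other direction (507 to 1110 against 1150 to 2410), whereas the leukocyte and fibroblast sums overlap through Cont replicate 1.

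The start and end points of reprogramming set the frame for these levels. In MEF, H2-K1 was at 11.1, 29.3 and 24.2, H2-D1 at 21.1, 32.6 and 44.9 and B2m at 3080, 2840 and 1940. In ESC, H2-K1 was at 15.5, 7.23 and 14.1, H2-D1 at 6.39, 0 and 3.86 and B2m at 119, 135 and 114. B2m was 21.3-fold lower in ESC than in MEF (log2 fold change -4.4, SE 0.351, adjusted p = 4.93e-08) and H2-D1 9.62-fold lower (-3.03, SE 0.661, adjusted p = 0.0011; -3.81 without ESC replicate 1). H2-K1 overlapped between the 2 and did not pass (-0.753, adjusted p = 0.254).

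Of the 5 members tested between ESC and MEF, H2-D1, B2m and Tapbp were lower in ESC (28.8% of genes) and Psmb10 was higher (23.5%). The Tapbp call (log2 fold change -1.13, adjusted p = 0.0491) was lost in most alternatives, and so was that of Psmb10 (1.03, adjusted p = 0.0299) in several of them. Of 9 interferon receptor and signalling genes, 6 were lower in ESC and 2, Socs3 (2.2, adjusted p = 0.00425) and Ptpn2 (adjusted p = 0.0244, named after its value was seen), were higher. Ifngr2 had 71, 75 and 91 reads in MEF and 0, 2 and 0 in ESC (adjusted p = 1.87e-06). Ifngr1 had 5, 0 and 0 reads in ESC (adjusted p = 9.48e-05), and Jak2 was lower in ESC as well (log2 fold change -2.8, adjusted p = 0.000619).

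At the start of reprogramming, on day 3 of Cont, H2-D1 (log2 fold change 0.881, SE 0.28, adjusted p = 0.00961) and Psmb10 were higher than in MEF (22.6% of genes) and H2-K1 was lower (-1.3, SE 0.399, adjusted p = 0.00714; 20.9%). Psmb10 differed most, at 46.7, 42.3 and 19.9 in MEF against 442, 348 and 338, a 10.4-fold difference (log2 fold change 3.51, SE 0.243, adjusted p = 1.2e-15). The H2-D1 call was lost without MEF replicate 1 (0.113) or Cont day 3 replicate 1 (0.126). Transgene, medium and sorting differed between these groups as well and cannot be told apart.

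H2-K1, H2-D1, B2m, Tapbp and Psmb10 were lower in ESC than on day 10 of either series. Against Cont (30.3% of genes were lower) B2m differed by 38-fold and H2-D1 by 61.4-fold, and against +Sm3CA (27.2%) B2m by 20.1-fold and H2-D1 by 34.2-fold. The H2-D1 folds rest on 7, 0 and 3 reads in ESC, and without ESC replicate 1 the log2 fold change against Cont went from -5.64 to -6.47 and that against +Sm3CA from -4.82 to -5.68. Tap1 was at 6.12 in ESC, and its libraries overlapped those of day 10 in both series. Psmb8, tested through its Cont reads of day 10, was lower in ESC than in Cont and did not pass against +Sm3CA (adjusted p = 0.693). The call against Cont was lost without ESC replicate 3 (adjusted p = 0.051). Nlrc5 had no read in ESC, which put its Cont day 10 level at least 2.97-fold above the limit set by 3 reads per ESC library. The order of the group means of B2m was ESC (123), +Sm3CA day 3 (2340), +Sm3CA day 6 (2380), +Sm3CA day 10 (2470), MEF (2620), Cont day 3 (2660), Cont day 6 (2760), +Sm3CA day 8 (2820), Cont day 8 (3300) and Cont day 10 (4670). Neighbours in this order between 2340 and 3300 overlapped in range, and only ESC and Cont day 10 stood clear of the rest.

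The members varied among themselves across the 30 libraries. With the mean of the scaled log2 library-size-adjusted counts of the 6 tested members, H2-D1 correlated at r = 0.937, Tapbp at 0.896, B2m at 0.814, H2-K1 at 0.77, Psmb8 at 0.702 and Psmb10 at 0.479, and H2-K1 and Psmb10 at -0.0248 with each other. Each member is part of that mean, which raises its own value. Between pairs of members r went up to 0.89 (H2-D1 and B2m). The 30 libraries share days and groups, so these values are descriptions. Among 10979 genes, the 8 other genes most like that mean were Il2rg (r = 0.943), Hspb8 (0.914), Ifi203 (0.913), Serpinb1a (0.912), H2-L (0.906), Casp1 (0.906), Ifi202b (0.904) and Ssh3 (0.903). H2-L may share reads with H2-K1 and H2-D1, which are part of that mean. Il2rg, the common gamma chain of several interleukin receptors, was at 14.7 in MEF, 19.3 in Cont on day 3, 104 in Cont on day 10, 93.7 in +Sm3CA on day 10 and 1.65 in ESC. Casp1, the inflammatory caspase, was at 2.68 in MEF, 2.84 in Cont on day 3, 60.8 in Cont on day 10, 22.1 in +Sm3CA on day 10 and 0 in ESC.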

How the data were processed

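The deposited table held raw read counts per gene for 84 wells (195330 to 902989 reads each), made by the authors from 5′-tagged STRT reads; the submitters' processing notes name Bowtie 0.12.9, DESeq2 1.6.3 and the build mm10. The gene annotation, the treatment of reads matching several genes and the use of strand are not given in the sources used here. Reads, not molecules, were counted, so duplicates are included.

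Wells were summed per labelled replicate to 30 libraries (3 wells each, 2 on day 10). Fits used edgeR 4.0.16 (R 4.3.3) with TMM scaling, filterByExpr and the quasi-likelihood test, with Benjamini-Hochberg adjustment over all genes tested: the 24 reprogramming libraries for the comparisons between and within series, all 30 where MEF or ESC met reprogramming cells, and 6 for ESC against MEF. Normalized counts used DESeq2 1.42.0 median-ratio factors. Of the members, 6 passed the filter (5 for ESC against MEF), and Tap1, Tap2, Psmb9 and Nlrc5 did not. The fits were tested on simulated data. Alternatives were DESeq2 size factors, no filter, the DESeq2 Wald test, a replicate block, the libraries of a day alone, all 30 libraries in a fit, counts per library total and leaving out each replicate. Up to 6 genes per list were named by smallest adjusted p, and Irf1, Rfx5, Psmb5, Psmb6 and Psmb7 were named in any case. The members and lists were chosen with earlier results of these data known. Per the series' design text, replicate numbers pair the days within a series; whether they pair Cont with +Sm3CA is not stated. Deviations of same-numbered libraries of a day correlated at a mean r of -0.0136 (12 pairs, 0 over 0.1), and those of days 3 and 10 within a series at 0.0185 (6 pairs). P-values measure the spread between these libraries. A regulator and counts that rest on it are not reported here. No 2 replicates held identical counts.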

Additional observations from a re-analysis of the deposited data

Results flagged for a closer look

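The difference in H2-K1 between +Sm3CA and Cont was not the same on days 3 and 10. The test of day 10 minus day 3 gave -1.89 on the log2 scale (edgeR, adjusted p = 0.0303). On day 3 the mean was 12.6 ± 5.95 in +Sm3CA and 8.03 ± 1.67 in Cont, and on day 10 it was 64.5 ± 10.5 and 161 ± 27 (SD, n = 3). On day 10, 3 of 3 +Sm3CA libraries lay below all Cont libraries. The day 3 values rest on low counts, and the call was lost when any of 9 of the 12 libraries was left out.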

How the results depend on the processing

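The day 10 differences of H2-K1 and B2m between +Sm3CA and Cont held in 11 of 11 alternatives each (log2 fold changes -1.41 to -1.18 and -1.08 to -0.783). The number of members called there was 2 to 4 when single libraries were left out (4 with all), 6 to 7 for Cont day 10 against day 3 (6), 1 to 2 for Cont day 10 against day 8 (2), 2 to 3 for Cont day 3 against MEF (3), 6 to 7 for ESC against Cont day 10 (6), 2 to 3 for ESC against MEF (4), and 0 to 1 for the difference between the rises (1). It stayed at 4 for +Sm3CA day 10 against day 3, at 5 for ESC against +Sm3CA day 10, and at 0 for +Sm3CA against Cont on days 3, 6 and 8 and for +Sm3CA day 10 against day 8. ESC against MEF had 2 members in the DESeq2 Wald test. Psmb10 between +Sm3CA and Cont on day 10 was 0.326 without Cont day 10 replicate 1, and turned to -0.0328 without Cont day 10 replicate 2 and to -0.00215 without Cont day 10 replicate 3. Causes were not tested. With the replicate block, which the design text gives for the days of a series, the member counts of the comparisons between days did not change; 4 members were called between the series on day 10, and ESC against MEF had 3 in place of 4 (Tapbp, adjusted p = 0.0779). Ifngr2 lost its call under the block (0.0564), as in all its other alternatives, so that call rests on the main fit alone. The replicate numbers are not shown to pair the series. Over all genes, the day 10 count between the series was 366, and 176 without Cont day 10 replicate 2. Low depth limits Tap1, Tap2, Psmb8, Psmb9 and Nlrc5, where few reads were counted.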
